A study of Mus musculus with 60 samples.

Results

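The 10 adipocyte genes Plin1, Adipoq, Lep, Fabp4, Cidec, Pparg, Lipe, Cfd, Retn and Ucp1 were followed across the tissues and tumours of mice with the CD74-NRG1 fusion. They were taken by symbol from the tissue count table and are 10 of its 54838 genes, and each symbol was on 1 line. The table holds 42 libraries from 9 mice, 30 of normal tissue and 12 of tumour: 8 of liver, 7 of lung, 6 each of spleen and muscle, 2 of brain, 1 of kidney, 7 of sarcoma, 3 of liver tumour and 2 of an intestine tumour. Per the labels, every mouse is of the line Rosa26CD74-NRG1/Flp, in which a Flp recombinase active from the early embryo removes a stop cassette and leaves the fusion on in nearly all tissues. Normal tissue and tumour therefore carry the same alleles, no transgene-free tissue enters any comparison, and age and sex are not in the labels. RNA came from cryostat sections of frozen tissue, and reads were made from the 3' ends of transcripts with QuantSeq. The sarcomas came from 6 mice, since mouse M00245 gave 2 of them (T1 and T2), and both intestine tumour libraries came from mouse M00247. One of the 3 liver tumour libraries, that of mouse M00249, is titled as liver but labelled as tumour, and it was used as tumour.

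An adipocyte stores triglyceride in 1 large lipid droplet and secretes hormones. Pparg, a nuclear receptor, switches on much of the programme, Plin1 and Cidec coat the droplet, Lipe (hormone-sensitive lipase) takes it apart, and Fabp4 carries the fatty acids inside the cell. Adipoq (adiponectin), Lep (leptin), Retn (resistin) and Cfd (adipsin, or complement factor D) are secreted, and Ucp1 uncouples respiration to make heat in brown and beige fat. The genes are not equally restricted to fat: Fabp4 is also made by capillary endothelium and some macrophages, Pparg by macrophages of the lung alveolus, and Cidec by hepatocytes that fill with lipid. In bulk tissue, fewer fat cells and less RNA per fat cell cannot be told apart.

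Levels are in CPM, the count scaled to the library's total, and a count of 0 allows 3 counts, which is 0.297 to 0.62 CPM at totals of 4837536 to 10089637. Marker genes were high where the labels place them. Summed alveolar epithelium markers were at 21759 to 76746 CPM in lung, skeletal muscle markers at 17123 to 32198 CPM in muscle, and hepatocyte markers at 34506 to 62663 CPM in liver. Skin was not sampled, yet epidermal keratinocyte markers summed to 2746 to 8443 CPM in the muscle libraries and to 389 to 6523 CPM in the sarcomas, against at most 40.1 CPM elsewhere. Pancreatic acinar markers reached 991 CPM in the spleen of M00246 and 207 CPM in the spleen of M00248. The part of these other cells in the results was not tested.

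Promoter letters are shown for Lep, Plin1 and Cidec, which were all high in the lung of M00248 and the sarcoma of M00235. They also hold a match to a loose form of the site that C/EBP factors, partners of Pparg in fat cells, are known to bind. The genes were picked for both traits, so level and match go together here by choice. Adipoq, Cfd and Retn were also high in both libraries and held no match, and Pparg held matches that are not shown. The letters come from the RefSeq promoters of build GRCm38.p6 (250 bases before to 50 after a start site), in which 9 of the 10 genes had an entry, with 13 promoters in all. Fabp4 had none. Each line is 30 bases, read 5′ to 3′ on the gene's strand, and the capitals mark the match to TTGCNNAA on either strand.
Lep, chr6:29060155-29060184, plus strand: tggccggacagTTGCGCAAgtggcactggg
Plin1, chr7:79732816-79732845, minus strand: tctgagaggcaTTGCCCAAgattccctgga
Cidec, chr6:113434944-113434973, minus strand: ggagggctctaTTGCTCAAgggcccatggg
The matches began 55, 58 and 198 bases before the start sites of Lep, Plin1 and Cidec, and Plin1 held another at 187 bases, not shown. TTGCNNAA was found in 4 of the 13 promoters (1 each of Lep, Plin1, Cidec and Pparg) and in 10.8% of all 32851 promoters. The palindrome TTGCGCAA, which is one form of TTGCNNAA, was in that of Lep alone and in 0.183% of all promoters. The DR1 repeat that Pparg is known to bind, in its consensus letters, was in 0 of the 13 and in 0.0396% of all. These are matches of letters in short windows, and the data hold no measure of binding there.

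Plin1 and Adipoq, the droplet coat and the hormone that are closest to fat alone, were found at high level in a few single libraries. Their summed level was 136 CPM in the lung of M00248, 42.3 CPM in the kidney of M00249, 41.1 CPM in the sarcoma of M00235 and 40.2 CPM in the lung of M00247. It was 30.0 CPM in sarcoma T1 of M00245, 21.1 CPM in the sarcoma of M00248, 20.0 CPM in the spleen of M00248 and 17.5 CPM in the spleen of M00245. All other libraries were at or below 6.94 CPM, the level of intestine tumour T2. These 8 libraries come from 4 tissues and 5 mice, and each of those tissues other than kidney, which has 1 library, also has libraries at low level.

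Within a mouse the signal was in some tissues and not in others. Mouse M00248 had it in lung, spleen and sarcoma, while its muscle was at 0.12 CPM, its liver at 0.124 CPM and its liver tumour at 0.0991 CPM, all under the limit that a count of 0 allows. Mouse M00245 had it in sarcoma T1 and in spleen, while sarcoma T2 was at 2.81 CPM and its lung at 0.598 CPM. Mouse M00247 had it in lung, and its spleen was at 0.615 CPM. Mouse M00249 had it in kidney, and its lung was at 3.94 CPM. The 2 sarcomas of M00245, from 1 animal, thus stood at 30.0 and 2.81 CPM, while the sarcomas of all mice ran from 2.78 to 41.1 CPM.

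**Figure D1:**
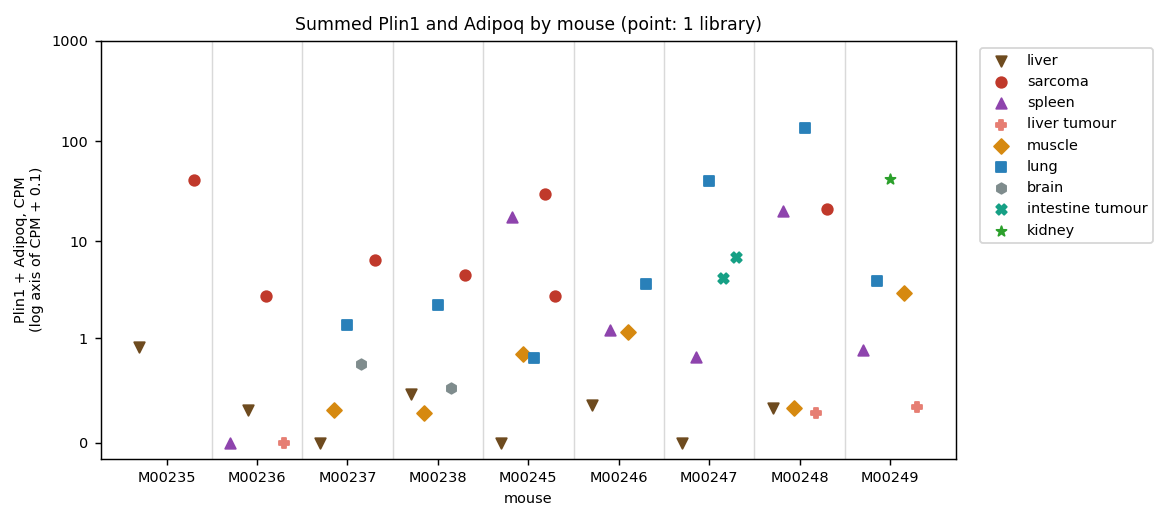
Summed CPM of Plin1 and Adipoq in each of the 42 libraries, grouped by mouse on the horizontal axis; colour and symbol give the tissue, and the vertical axis is logarithmic in CPM + 0.1. High points sit beside low ones of the same mouse, as in M00248, where lung is at 136 CPM and muscle at 0.12 CPM.

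By tissue, the 6 sarcoma mice had a lowest, median and highest summed Plin1 and Adipoq of 2.78, 10.7 and 41.1 CPM. The 7 lungs had 0.598, 3.7 and 136 CPM, the 6 spleens 0, 0.986 and 20.0 CPM, and the 6 muscles 0.0997, 0.391 and 2.98 CPM. The 8 livers ran from 0 to 0.801 CPM and the 3 liver tumours from 0 to 0.127 CPM. Of these 6 groups, sarcoma was the one with every mouse above 2 CPM, a limit that had not been planned. In the lowest sarcoma, that of M00236, the sum rested on 16 counts, and Cidec added none to it. The lowest level of Adipoq alone in a sarcoma mouse was 0.174 CPM, under the limit that a count of 0 allows. The ranges of sarcoma, lung and spleen overlapped. The lung of M00248 alone held 72.3% of the summed level of the 7 lungs, and without it the mean over lungs fell from 26.9 ± 50.1 (SD, n = 7) to 8.68 CPM. In sarcoma the highest mouse, M00235, held 45.2%, and the mean fell from 15.1 ± 14.5 (SD, n = 6) to 9.96 CPM without it.

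The order of the tissues depended on which of the 10 genes were summed. Over all 10, medians were 146 CPM in sarcoma, 119 in muscle, 107 in lung, 88.4 in liver tumour, 46.5 in spleen and 31.6 in liver. Muscle, where the median of Fabp4 was 101 CPM, ranked 6 of 6 by Adipoq, Plin1 and Cidec (0.451 CPM). Liver tumour ranked 1 by those 3 genes (21.6 CPM, nearly all of it Cidec), and 6 by Plin1 and Adipoq (0.0991 CPM). Sarcoma kept rank 1 by Plin1 and Adipoq, a sum chosen after the values had been seen. The ranges of neighbouring tissues in these orders overlapped.

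**Figure D2:**
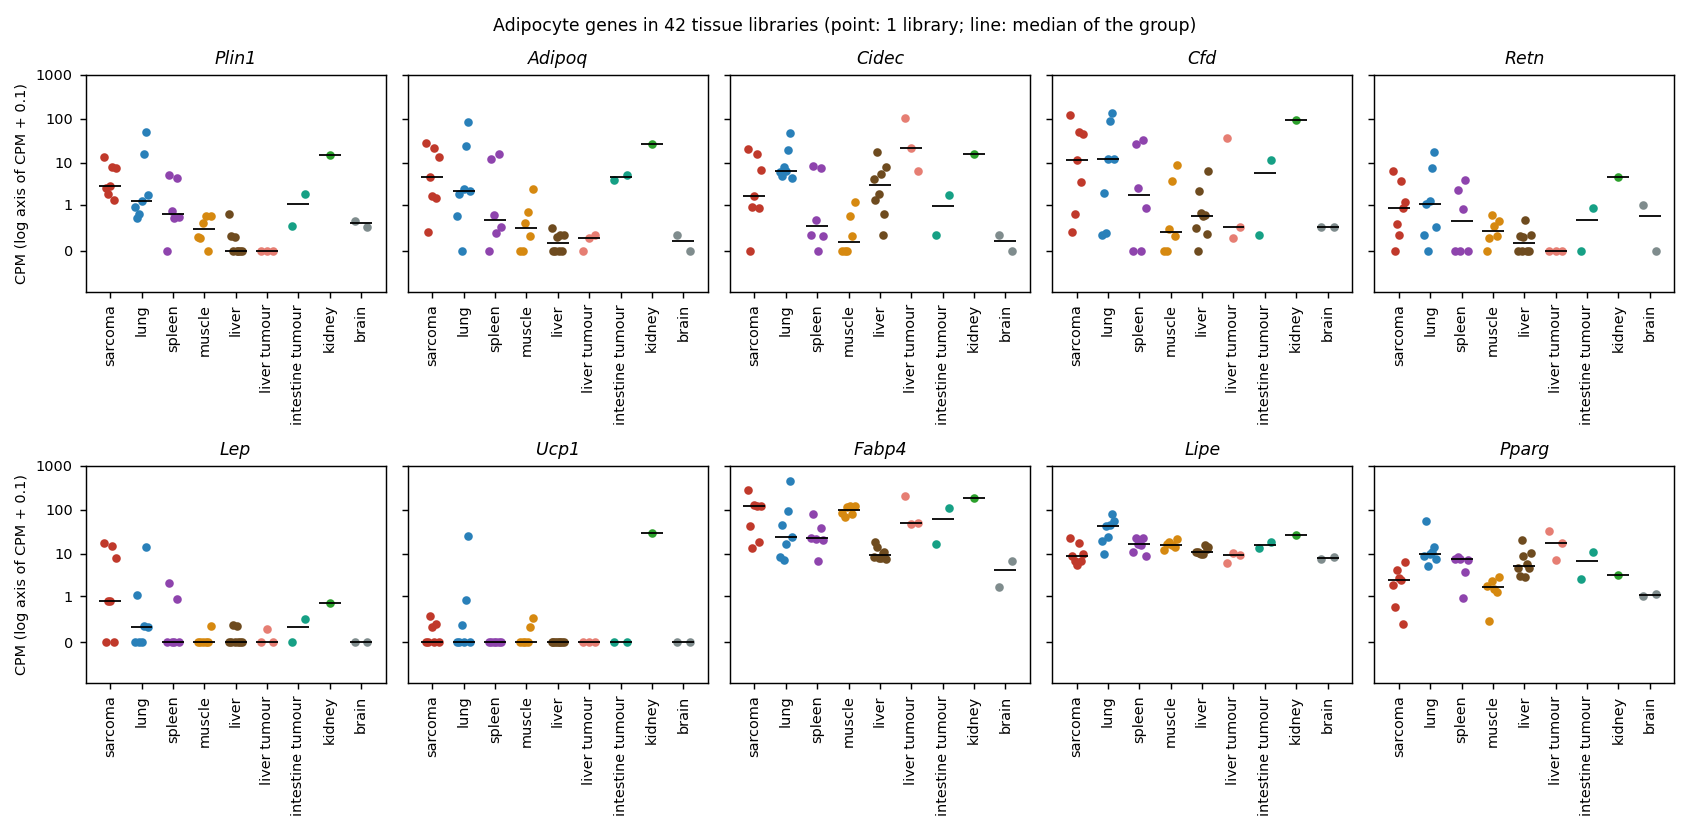
CPM of each of the 10 genes (vertical axis, logarithmic in CPM + 0.1) in 42 libraries by tissue or tumour; each point is 1 library and each line the median of its group. Plin1, Adipoq, Retn, Lep and Ucp1 are near 0 in most libraries and high in a few, whereas Fabp4 is between 68.1 and 124 CPM in all 6 muscles and Lipe is above 5 CPM everywhere.

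Of the droplet coats, Plin1 was at 1.81, 3.61 and 13.1 CPM (lowest, median and highest) in the 6 sarcoma mice and at 0 to 0.519 CPM in the 6 muscles, with no overlap. It ran from 0.454 to 50.1 CPM in lung and from 0 to 5.19 CPM in spleen. Plin1 was at most 0.572 CPM in liver, and no count of it was found in the 3 liver tumours. Cidec behaved otherwise in 2 tissues. It was at 4.31 to 8.07 CPM in the 5 lungs with little Plin1 or Adipoq, and at 19.5 and 47.3 CPM in the lungs of M00247 and M00248. In liver it ran from 0.135 to 17.0 CPM, and in the liver tumours it was at 6.33, 21.5 and 102 CPM, where Plin1 was at 0. In muscle Cidec was at 0 in 3 of 6 libraries and at most at 1.17 CPM.

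Of the secreted proteins, Adipoq was at 0.174, 7.62 and 28.0 CPM (lowest, median and highest) in sarcoma, 0, 2.22 and 85.9 CPM in lung, 0, 0.397 and 15.5 CPM in spleen and 0, 0.226 and 2.47 CPM in muscle. Cfd had the same high libraries at a higher level, with 137 CPM in the lung of M00248, 122 CPM in the sarcoma of M00235 and 91.5 CPM in the kidney. One further library was high for Cfd, the liver tumour of M00236 at 35.6 CPM, against 0.0991 and 0.253 CPM in the other 2 liver tumours. Retn reached 17.0 CPM in the lung of M00248 and 7.44 CPM in the lung of M00247, and was at most 0.553 CPM in muscle and 0.395 CPM in liver. Over the 42 libraries, the log2(CPM + 1) of Cfd, Retn and Lep had Pearson correlations of 0.91, 0.88 and 0.77 with the mean of Adipoq, Plin1 and Cidec. These are descriptions over libraries that share mice, and most of them are near 0 for these genes.

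Lep was the secreted gene that split the high libraries. It was at 18.1 CPM in the sarcoma of M00235, 15.5 CPM in sarcoma T1 of M00245, 14.4 CPM in the lung of M00248 and 7.96 CPM in the sarcoma of M00248. The other 4 libraries high in Plin1 and Adipoq had little of it: 2.11 CPM in the spleen of M00245, 0.862 CPM in the spleen of M00248, 0.689 CPM in the kidney and 0.135 CPM in the lung of M00247. Ucp1, the thermogenic gene, was found in quantity in 2 libraries, at 30.3 CPM in the kidney of M00249 (220 counts) and 25.5 CPM in the lung of M00248 (168 counts). The lung of M00247 was at 0.812 CPM, no count was found in any spleen or liver, and sarcoma and muscle were at most at 0.301 CPM, under the limit that a count of 0 allows.

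To compare the make-up of the fat signal, each gene's count was set against that of Adipoq in the 8 libraries with at least 50 Adipoq counts, a limit chosen after the values had been seen, and the next library (intestine tumour T2) was at 5.06 CPM. Such ratios are compared between libraries and not between genes. Counts of Cidec per count of Adipoq varied 1.64-fold over the 8 libraries (0.489 to 0.804), those of Plin1 2.28-fold (0.289 to 0.659), those of Cfd 2.73-fold (1.6 to 4.36) and those of Retn 3.57-fold (0.086 to 0.307). Lep varied 127-fold, from 0.00559 to 0.708, and its lowest ratio rests on 1 count. In the 3 sarcomas the share of Lep in the counts of Lep plus Adipoq was 39.3%, 41.4% and 37.2%, with Wilson 95% intervals that together span 29.8% to 48.7%. In the other 5 libraries it was 14.6% in the spleen of M00245 (8.74% to 23.4%), 14.4% in the lung of M00248 (11.9% to 17.3%), 5.26% in the spleen of M00248, 2.48% in the kidney and 0.556% in the lung of M00247. The intervals of the sarcomas did not overlap those of the other libraries, though they cover counting error alone, and the libraries were picked for their Adipoq.

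Ucp1 split the same 8 libraries in another way. Its share against Adipoq was 52.8% in the kidney (48.0% to 57.5%), 22.9% in the lung of M00248 (20.0% to 26.1%) and 3.24% in the lung of M00247. No count of Ucp1 was found in the 3 sarcomas or in the 2 spleens, with upper Wilson bounds of 2.14% (sarcoma of M00235) to 4.81% (spleen of M00245). The lung of M00248 was thus the only library with both Lep and Ucp1 in quantity. Cidea, a droplet protein of brown fat that fatty liver also makes, was at 40.8 CPM in that lung against 1.72 to 5.75 CPM in the other 6 lungs, and at 19.2 CPM in the kidney. In the sarcomas Cidea did not follow Adipoq, with 0.318 CPM in M00235 and 19.6 CPM in T1 of M00245.

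**Figure D3:**
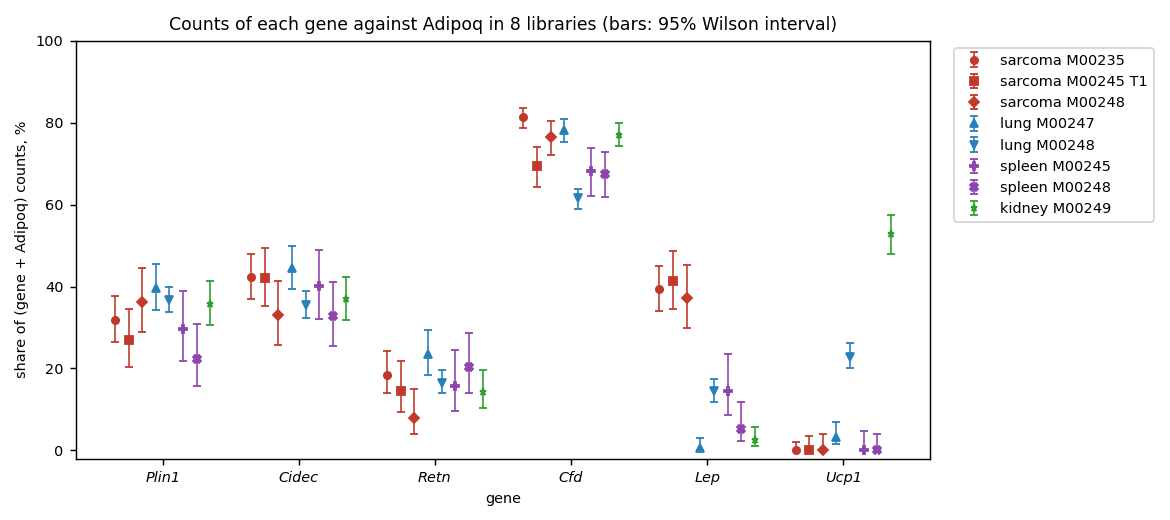
Share of each gene in the summed counts of that gene and Adipoq (vertical axis, %), for 6 genes and the 8 libraries with at least 50 Adipoq counts; bars are 95% Wilson intervals of counting error. Lep lies at 37.2% to 41.4% in the 3 sarcomas and at 14.6% or less in the others, and Ucp1 is high in the kidney (52.8%) and the lung of M00248 (22.9%) only.

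Fabp4, the fatty acid carrier, was in every library, at 1.66 to 443 CPM. It was highest in the lung of M00248 (443 CPM) and the sarcoma of M00235 (283 CPM), which were high in Plin1 and Adipoq too. All 6 muscles had 68.1 to 124 CPM with at most 2.98 CPM of Plin1 and Adipoq, and the liver tumours had 49.1, 50.6 and 211 CPM with at most 0.127 CPM. In sarcoma Fabp4 ran from 13.4 to 283 CPM and in the 6 other lungs from 7.33 to 94.6 CPM. Within muscle the level of Fabp4 had a Pearson correlation of 0.83 with the summed endothelial markers and of 0.77 with the mean of Adipoq, Plin1 and Cidec, both described over 6 libraries only. In the same order, the correlations were -0.3 and 0.92 in lung, 0.59 and 0.75 in sarcoma, 0.62 and 0.8 in spleen, and 0.6 and -0.18 in liver. Over all 42 libraries they were 0.13 and 0.6.

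**Figure D4:**
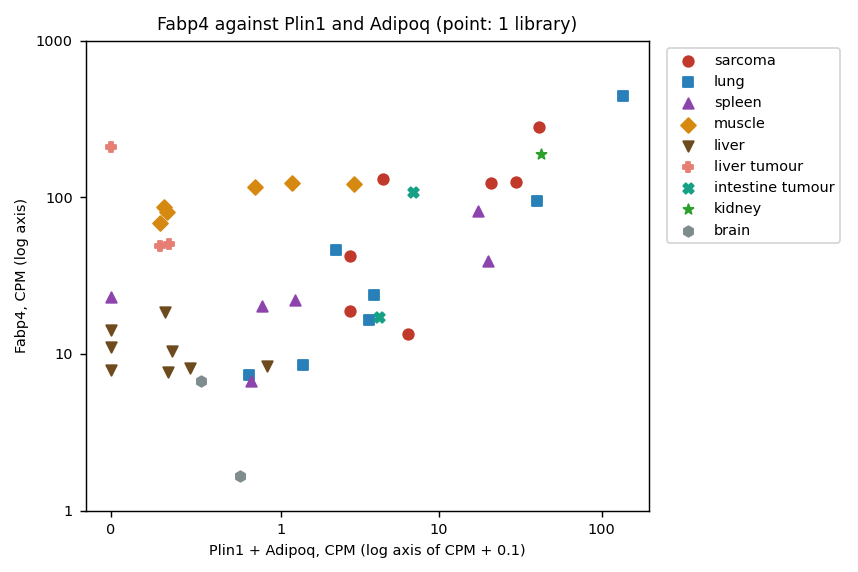
Fabp4 (vertical axis, CPM, logarithmic) against the summed CPM of Plin1 and Adipoq (horizontal axis, logarithmic in CPM + 0.1), 1 point per library. The 6 muscles and the 3 liver tumours lie at 49.1 to 211 CPM of Fabp4 with at most 2.98 CPM of Plin1 and Adipoq, while the lung of M00248 is at the upper right.

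Pparg and Lipe were broad. Pparg was at 5.38, 9.84 and 56.5 CPM (lowest, median and highest) in lung, 0.922, 7.46 and 8.28 CPM in spleen, 0.522, 2.34 and 6.37 CPM in sarcoma and 0.199, 1.66 and 2.86 CPM in muscle. The highest lung for Pparg was that of M00238, with 2.27 CPM of Plin1 and Adipoq. Summed markers of alveolar macrophages were 1304 CPM in that lung and 260 to 945 CPM in the others, and their part in the level of Pparg was not tested. Liver had 1118 to 5993 CPM of the same list, but mostly from 1 gene of it, Fabp1 (1035 to 5975 CPM). Over the 42 libraries Pparg had a correlation of 0.29 with the mean of Adipoq, Plin1 and Cidec, the lowest of the 10 genes. Lipe was at 9.84, 42 and 82.3 CPM in lung, 8.75 to 23.2 CPM in spleen, 12 to 21.5 CPM in muscle, 5.68 to 22.8 CPM in sarcoma and 9.8 to 16.3 CPM in liver. Its highest library was again the lung of M00248.

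Tests between tissues used edgeR's quasi-likelihood F test with Benjamini-Hochberg adjustment over all genes passing the filter on low counts, and a gene was called at an adjusted p under 0.05. Fold changes are relative to the TMM scaling, which sets the median of all genes near 0. With total counts alone that median moved from 0.06 to 1.03 on the log2 scale for sarcoma against muscle, and from -0.07 to -0.94 for muscle against lung. The calls then split into 9271 higher and 2019 lower of 14697 genes in sarcoma against muscle, in place of 4931 and 4609. For sarcoma against spleen the split moved from 3955 and 4387 to 5931 and 2302. For muscle against spleen it moved from 4795 and 4968 to 3423 and 6791, for muscle against lung from 4179 and 4590 to 1987 and 9119, and for lung against spleen from 4229 and 3804 to 5454 and 2219. The 7 comparisons share libraries, and several groups share mice, so they do not count as separate evidence. Lep, Retn and Ucp1 had enough counts in too few libraries to pass the filter in any of the 7. A member or listed gene at or near 0 in 1 group passed through the group where it is high, and had to differ.

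Per its design text, the study set tumours beside normal tissue of the same animals, and for sarcoma 3 normal tissues were used. Against muscle, the log2 fold change of Plin1 was 3.39, higher in sarcoma (SE 0.673, edgeR adjusted p = 0.00057), with means of 5.39 ± 4.29 (SD, n = 6) against 0.263 ± 0.226 CPM (SD, n = 6). Plin1 passed the filter through sarcoma, since no muscle held more than 4 counts of it. Adipoq and Cfd were also low in muscle, with medians of 0.226 and 0.17 CPM and at most 2.47 and 8.95 CPM (M00249). They too passed the filter mostly through sarcoma, the group where they are high. Adipoq was higher by 3.06 (SE 1.04, adjusted p = 0.019), and this was lost without the sarcoma of M00235 (2.31, adjusted p = 0.057) or without mouse M00248 in both groups (2.76, adjusted p = 0.061). Lipe was lower in sarcoma by 1.54 (log2 fold change -1.54, SE 0.322, adjusted p = 0.00082), although its CPM overlapped, and with total counts alone the value was -0.58 (adjusted p = 0.087). So 3 of the 6 members tested were called, 2 higher and 1 lower, where 64.9% of all 14697 genes were called, 33.6% higher and 31.4% lower. Cfd (3.00, adjusted p = 0.056 by edgeR), Fabp4 (-0.83, adjusted p = 0.18) and Pparg (-0.28, adjusted p = 0.69) did not pass. Cfd passed with mouse as a block (6.55, adjusted p = 0.00014), with sarcoma T1 alone for M00245 (3.16, adjusted p = 0.045), and without the sarcoma of M00236 or M00237 (3.27 and 3.26, adjusted p = 0.033 and 0.032) or the muscle of M00249 (4.48, adjusted p = 0.017). Fabp4 passed, lower in sarcoma, without the sarcoma of M00235 (-1.41, adjusted p = 0.015). With total counts alone, Fabp4 and Pparg turned to 0.14 and 0.77. Endothelial markers fell in sarcoma against muscle in 6 of 7 tested, and in 2 of 7 with total counts alone. Epidermal keratinocyte markers fell in 4 of 6 with 1 higher, and in 2 of 6 with 1 higher with total counts alone. The part of these markers in the values above was not tested.

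Against spleen, 2 of the 7 members tested were called, both lower in sarcoma, where 57.0% of 14642 genes were called, 27.0% higher and 30.0% lower. Pparg had a log2 fold change of -1.63 (SE 0.518, adjusted p = 0.015 by edgeR), and Lipe of -1.06 (SE 0.333, adjusted p = 0.014). With mouse as a block Pparg did not pass (-2.21, adjusted p = 0.089), without mouse M00248 Lipe did not (-0.89, adjusted p = 0.063), and with total counts alone neither did (-1.07, adjusted p = 0.11, and -0.58, adjusted p = 0.16), whereas Fabp4 then did (1.77, adjusted p = 0.024). The 5 others were not called: Fabp4 1.34 (adjusted p = 0.071), Cfd 1.28, Plin1 1.11, Cidec 0.77 and Adipoq 0.59. Fabp4 passed without the sarcoma of M00237 (1.58, adjusted p = 0.018), without the spleen of M00245 (1.81, adjusted p = 0.023) and with T1 alone for M00245 (1.46, adjusted p = 0.047). The ranges of spleen and sarcoma overlapped for Adipoq (0 to 15.5 and 0.174 to 28.0 CPM). Without the sarcoma of M00235, Adipoq was at -0.14 and Cidec at -0.15, and with mouse as a block they were at -0.58 and -0.74, with Cfd at -0.28.

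Against lung, 2 of the 7 members tested were called, the same pair of Pparg (-2.68, SE 0.593, adjusted p = 0.0017 by edgeR) and Lipe (-2.01, SE 0.469, adjusted p = 0.0026), both lower in sarcoma, where 41.9% of 15556 genes were called, 18.1% higher and 23.8% lower. Plin1 (-1.08, SE 1.00), Adipoq (-0.98, SE 1.17), Cidec (-1.33, SE 0.84), Cfd (-0.26, SE 1.26) and Fabp4 (0.10, SE 0.898) were not called. The sign of several turned with 1 library: without the lung of M00248 the values were 0.47 for Plin1, 0.72 for Adipoq and 0.68 for Cfd, and without the lung of M00247 Cfd was at 0.11. With mouse as a block, Plin1 was at 0.62, Adipoq at 0.92 and Cfd at 1.85. Fabp4 was at 1.61 without the lung of M00248, at -0.46 without the sarcoma of M00235 and between -0.12 and -0.02 without the lung of M00237, M00238, M00245, M00246 or M00249, and none of these was called. Cidec passed without the sarcoma of M00235 (-2.24, adjusted p = 0.046) and with mouse as a block (-2.02, adjusted p = 0.044). Alveolar macrophage markers were lower in sarcoma in 5 of 6 tested and endothelial markers in 8 of 8, and their part in the values of Pparg and Fabp4 was not tested.

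**Figure D5:**
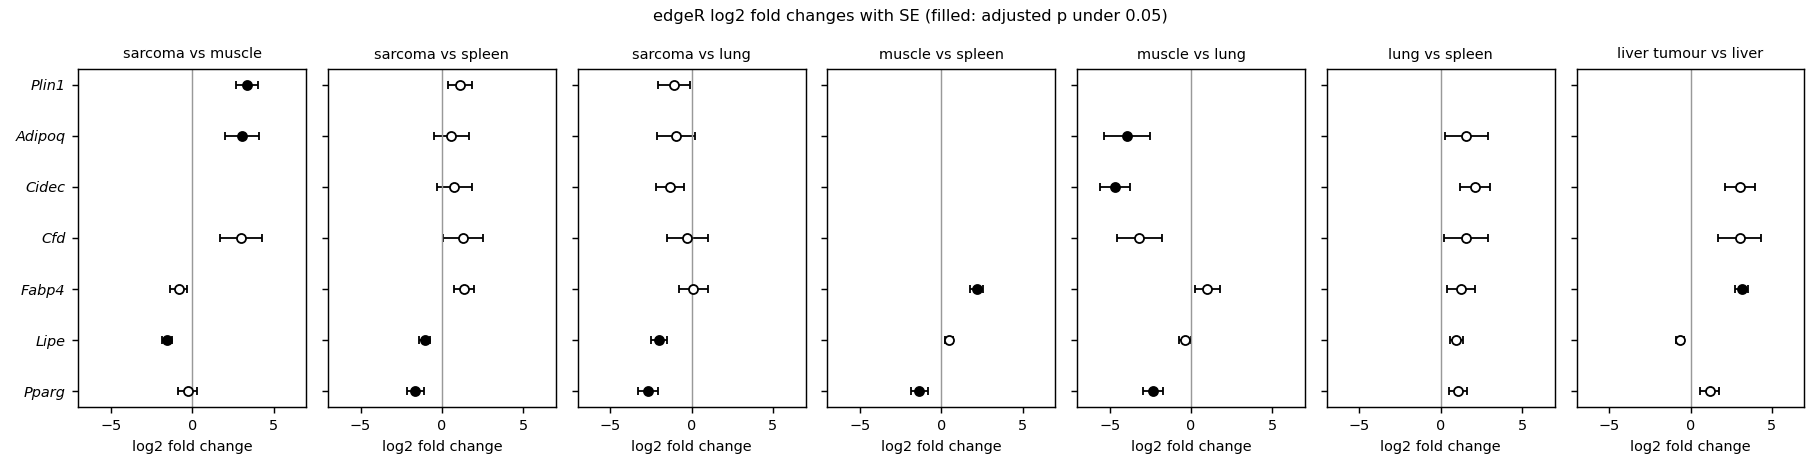
Log2 fold changes by edgeR (horizontal axis, first group over second) with SE bars for the members that passed the filter in each of 7 comparisons; filled points have an adjusted p under 0.05. Lipe and Pparg are below 0 in sarcoma against spleen and lung, and the bars of Adipoq and Cfd are wide in each comparison that tested them.

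Muscle and spleen allowed tests of 3 members, with 68.1% of 14332 genes called, 33.5% higher in muscle and 34.7% lower. Fabp4 was higher in muscle by 2.16 (SE 0.402, adjusted p = 0.00021 by edgeR), at 99.5 ± 24.3 (SD, n = 6) against 32.2 ± 26.5 CPM (SD, n = 6), and 5 of 6 spleens lay below all muscles. Endothelial markers rose in 5 of 8 in the same comparison, but with total counts alone 1 rose and 2 fell. Their summed level was 98.1 to 221 CPM in muscle and 137 to 276 CPM in spleen, and their part in the level of Fabp4 was not tested. Pparg was lower in muscle (-1.34, SE 0.514, adjusted p = 0.03 by edgeR), a call that was lost when the muscle of M00237, M00246 or M00248 or the spleen of M00236, M00245, M00246 or M00249 was left out (-1.31 to -1.21, adjusted p = 0.053 to 0.069). Lipe was at 0.49 (adjusted p = 0.074) and passed without the muscle of M00237 (0.61, adjusted p = 0.031) or the spleen of M00248 (0.62, adjusted p = 0.032).

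Muscle against lung tested 6 members and called 3, all lower in muscle, with 57.9% of 15155 genes called, 27.6% higher and 30.3% lower. Cidec was at -4.68 (SE 0.923, adjusted p = 0.00041 by edgeR), and its groups did not overlap (0 to 1.17 against 4.31 to 47.3 CPM). Cidec passed the filter through lung, since no muscle held more than 9 counts of it. Pparg was at -2.34 (SE 0.601, adjusted p = 0.0034), also with no overlap. Adipoq was at -3.96 (SE 1.42, adjusted p = 0.025), lost with mouse as a block (-1.92, adjusted p = 0.25), without mouse M00248 (-2.06, adjusted p = 0.2) and without the muscle of M00237, M00238, M00245 or M00248 (-3.85 to -3.64, adjusted p = 0.051 to 0.052). Adipoq too passed through lung, against a median of 0.226 CPM in muscle, and without any of 5 lungs (M00238, M00246, M00247, M00248 or M00249) it did not pass the filter and was not tested. Fabp4 was at 1.01 (adjusted p = 0.29 by edgeR), and passed without the lung of M00248 (2.43, adjusted p = 0.0014), with mouse as a block (2.88, adjusted p = 0.013) and by DESeq2 (2.05, adjusted p = 0.00044). Cfd (-3.17, adjusted p = 0.067) and Lipe (-0.39, adjusted p = 0.41) were not called. Cfd passed without the muscle of M00249 (-4.67, adjusted p = 0.025) or the lung of M00237, M00238 or M00245 (-3.48 to -3.46, adjusted p = 0.034 to 0.041). Its median in muscle was 0.17 CPM, so Cfd too entered the test mostly through lung.

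Lung against spleen called 0 of the 6 members tested by edgeR, where 52.9% of 15190 genes were called, 27.8% higher in lung and 25.0% lower. Lipe (0.95, unadjusted p = 0.031) and Cidec (2.11, unadjusted p = 0.041) had an unadjusted p under 0.05 by edgeR, which makes 2 of 6. At least 52.9% of all genes had one too, since every called gene does, so this count is not above that share. DESeq2 called 1, Lipe (0.97, adjusted p = 0.032). With mouse as a block, Cidec (2.68, adjusted p = 0.018 by edgeR) and Lipe (1.14, adjusted p = 0.0038) were called, both higher in lung. Lipe also passed without the lung of M00237, M00238 or M00246 (1.05 to 1.14, adjusted p = 0.0073 to 0.049), and Cidec without the spleen of M00245 or M00248 (2.79 and 2.83, adjusted p = 0.037 and 0.032). Without the lung of M00248, Adipoq moved from 1.57 to -0.14 and Fabp4 from 1.25 to -0.27.

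For liver tumour the normal tissue was liver, and 5 members were tested. Of these 1 was called, where 10.6% of 13256 genes were called, 6.98% higher and 3.64% lower. Fabp4 was higher in tumour by 3.14 (SE 0.4, adjusted p = 0.00058 by edgeR). The 3 tumours had 49.1, 50.6 and 211 CPM and the 8 livers 7.7 to 18.5 CPM, with no overlap, and without the tumour of M00236 the log2 value was 1.99 (edgeR adjusted p = 0.00092). Cidec was at 3.02 (SE 0.912, adjusted p = 0.051), Cfd at 3.01 (adjusted p = 0.17), Pparg at 1.18 (adjusted p = 0.23) and Lipe at -0.66 (adjusted p = 0.099). Without the tumour of M00236 Cfd was at -3.12 and Cidec at 1.31, and Cidec passed without the tumour of M00249 (3.54, adjusted p = 0.028) or the liver of M00237 (3.66, adjusted p = 0.026). With mouse as a block the value of Fabp4 was 2.97 (adjusted p = 0.24), and 0 of all 13256 genes were called with that fit, in which 2 mice carry both tissues. DESeq2 called 0 of the 5 and gave no adjusted p for 2 of them. The endothelial markers rose in 2 of 7 tested and summed to at least 154 CPM in the tumours against 115 to 179 CPM in the livers, and their part was not tested.

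Other genes of white adipocytes, a list of 14, moved in both directions or in 1, depending on the comparison. In sarcoma against muscle 8 were tested, 2 rose and 4 fell (33.6% and 31.4% of all genes did), with a median log2 fold change of -0.91 beside 0.06 over all genes. With total counts alone, where far more of all genes rose than fell, 3 rose and 2 fell, and the median was 0.06 beside 1.03. Car3, a carbonic anhydrase of fat and slow muscle, rose by 3.20 (adjusted p = 0.00061 by edgeR) and Nnat, an imprinted gene, by 2.94 (adjusted p = 0.00071). Gpd1, which makes the glycerol backbone of triglyceride and is abundant in muscle, fell by 1.44 (adjusted p = 0.015), and Agpat2, an enzyme of the next steps, fell by 1.00 (adjusted p = 0.00035). With total counts alone neither was called (Gpd1 -0.46, adjusted p = 0.35, and Agpat2 -0.03, adjusted p = 0.92). In sarcoma against lung 9 were tested, none rose and 5 fell (18.1% and 23.8% of all genes, median -0.99, all genes -0.01). In lung against spleen 10 were tested, 6 rose and none fell (27.8% and 25.0% of all genes, median 2.07, all genes -0.04), Thrsp by 2.10 (adjusted p = 0.029) and Nnat by 2.22 (adjusted p = 0.018) among them. Some of the list were near 0 in spleen and passed the filter through lung, so their direction was fixed in advance. Medians in spleen and lung were 0.0769 and 15.4 CPM for Adrb3, 0.396 and 14.1 CPM for Slc7a10, and 0.694 and 10.6 CPM for Nnat. In liver tumour against liver 0 of 7 were called by edgeR, and Thrsp was at -2.71 (adjusted p = 0.14). The sum of the list was 841 CPM in the lung of M00248 against 89.3 to 271 CPM in the 6 other lungs. Most of that sum came from 1 gene, Car3, at 479 CPM in the lung of M00248.

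The list of 8 thermogenic genes holds several genes that muscle fibres also make. In sarcoma against muscle 7 were tested, 2 rose and 4 fell (33.6% and 31.4% of all genes, median -3.16), among them Cox7a1 and Cox8b, subunits of cytochrome oxidase in muscle and brown fat, which had log2 fold changes of -6.47 and -6.58 (adjusted p = 1.2e-05 and 2.1e-05 by edgeR), and Ppargc1a, a coactivator of mitochondrial genes, at -5.79. Prdm16, a transcriptional regulator of brown fat, rose by 1.61 (adjusted p = 5.4e-05). In lung against spleen all 5 tested rose (27.8% of all genes, median 2.65), with Cidea at 4.37 (adjusted p = 0.0015 by edgeR). Cidea was at most at 0.61 CPM in spleen, where Cox8b and Cox7a1 had medians of 0.816 and 0.888 CPM. Such genes entered the test mostly through lung, so their rise was largely fixed in advance, and the count is no result about the list.

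Triglyceride storage and lipolysis, a list of 14, fell in 10 and rose in 2 in sarcoma against muscle (31.4% and 33.6% of all genes, median -2.08). With total counts alone, where far more of all genes rose than fell, 7 fell and 4 rose, with a median of -1.11 beside 1.03 over all genes. Lpl, which frees fatty acids from lipoproteins, fell by 3.07 (adjusted p = 0.00017 by edgeR), Cd36, a fatty acid receptor, by 3.80 (adjusted p = 3.7e-07) and Acsl1, which activates them, by 3.29 (adjusted p = 3.2e-08), whereas Mgll, the last lipase of the chain, rose by 0.90 (adjusted p = 0.0028). Plin2, a droplet coat of most cells, was at 0.02 (adjusted p = 0.92). In sarcoma against lung 7 of 14 fell and none rose (23.8% and 18.1% of all genes), with Cd36 at -4.77 (adjusted p = 4.7e-08). In liver tumour against liver 2 of 14 rose and 1 fell (6.98% and 3.64% of all genes), and Lpl rose by 3.78 (adjusted p = 0.0025).

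Fatty acid synthesis, a list of 8, rose in 3 and fell in 3 in sarcoma against muscle (33.6% and 31.4% of all genes), or in 5 and 3 with total counts alone, with Scd1, the desaturase, at 2.52 (adjusted p = 2.5e-05 by edgeR) and Me1, which supplies reducing power, at -2.87 (adjusted p = 8.1e-08). In sarcoma against lung 1 rose and 5 fell (18.1% and 23.8% of all genes), or 1 and 3 with total counts alone, and Fasn, the fatty acid synthase, was at -1.05 (adjusted p = 0.023), or -0.86 (adjusted p = 0.059) with total counts alone. Among lungs the list summed to 2745 CPM in that of M00248 and to 535 to 1291 CPM in the 6 others. In liver tumour against liver 3 of 8 fell and none rose (3.64% and 6.98% of all genes), Fasn by 1.81 (adjusted p = 0.014) and Acly, which makes cytosolic acetyl-CoA, by 1.40 (adjusted p = 0.048). With total counts alone 2 fell, and Acly was not called (-1.22, adjusted p = 0.065). Of 10 regulators of adipogenesis, Cebpa, a partner of Pparg, fell in sarcoma against muscle by 1.16 (adjusted p = 0.00092, but -0.19 and adjusted p = 0.56 with total counts alone) and against lung by 2.43 (adjusted p = 4.1e-05), and Srebf1, a lipogenic regulator, rose by 1.80 (adjusted p = 6.1e-05) and 0.97 (adjusted p = 0.031). Counts for this list were 2 higher and 4 lower of 10 against muscle (33.6% and 31.4% of all genes), which became 6 and 2 with total counts alone, and 3 higher and 3 lower against lung (18.1% and 23.8%). These runs of the lists on total counts were chosen after seeing the data. The shares of all genes beside the lists are those with TMM scaling. With total counts alone far more of all genes rose than fell in sarcoma against muscle, so list counts that rise there are not particular to the lists.

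Among 14907 genes with a mean of at least 1 CPM, and with the members left out, the 12 whose log2(CPM + 1) was most like the mean of Adipoq, Plin1 and Cidec over the 42 libraries were Trarg1 (Pearson 0.66), Dnajc14 (0.657), Ltc4s (0.639), Hoxb3os (0.627), Zfp110 (0.617), Car5b (0.616), Col4a4 (0.614), Trpm7, Ythdf3, Samd9l, Sntb2 and Fbln5 (0.608 to 0.611). Trarg1, which regulates glucose transporter traffic in fat cells, is also on the list of other white adipocyte genes. They were less like it than Cfd, Retn and Lep (0.91, 0.88 and 0.77), but more like it than Fabp4 and Ucp1 (both 0.6), Lipe (0.55) and Pparg (0.29). With Plin1 and Adipoq alone as the reference, which was chosen after the values had been seen, Aoc3, an amine oxidase of fat and smooth muscle, came first (0.736) and Ltc4s next (0.706).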

How the data were processed

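The deposited tissue table gives expected counts per gene, estimated by the authors from QuantSeq reads (per the labels, RNeasy columns, HiSeq4000). Neither aligner nor counter nor build is given in the sources used here, and the table's genes have no printed coordinates. Of its values, 8.35% are not whole. They were rounded, which moved the total by 0.00054%, and 85 genes have no symbol. CPM was recomputed from the counts. Tests used edgeR 4.0.16 in R 4.3.3 (two-sided quasi-likelihood F test, TMM, filterByExpr with minimum count 10, adjusted p under 0.05) on the 2 groups compared, with the 2 sarcomas of mouse M00245 summed. The tests had been planned for raw counts. SEs come from the F statistic. DESeq2 1.42.0 was an alternative. The fit was tested on simulated data. Alternatives were another scaling, filter, tool, shared fit, block and leaving out each library.

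Same-numbered samples come from 1 mouse per the labels, so they are paired; 2 to 6 mice are shared per comparison, and their deviations correlated at -0.15 to 0.34. Mouse as a block was an alternative. Libraries of 1 group differed by more than sampling noise (smallest chi-square per degree of freedom 10.6). Intervals and limits cover counting error only, as no molecular identifiers are stated.

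The members, lists and tests were chosen with earlier results of these data known. Named genes are the 10 members, the 12 most alike (without unnamed, mitochondrial and receptor or immunoglobulin segment genes) and up to 5 of each list by mean CPM. The fibroblast libraries and the deposited CPM tables were not used here.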

Additional observations from a re-analysis of the deposited data

Results flagged for a closer look

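In 48 groups of 4 to 10 samples (1 gene in 1 tissue), the highest or lowest value was compared with the rest on the log2(CPM + 1) scale; chance alone marks about 1 in 20 groups. Of the values compared, 6 stood apart. In the lung of M00248 they were Lep at 14.4 CPM and Ucp1 at 25.5 CPM, and in the lung of M00238 Pparg at 56.5 CPM. The other 3 are at or near the limit that a count of 0 allows: Plin1 in the liver of M00235 (0.572 CPM), Retn in the liver of M00245 (0.395 CPM) and Lep in the muscle of M00249 (0.13 CPM).

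Tissues outside the comparisons also held a signal above that limit. Adipoq, Plin1 and Cidec summed to 58.2 CPM in the kidney of M00249, to 8.71 and 4.4 CPM in intestine tumours T2 and T1 of M00247, and to 0.64 CPM in the brain of M00237, while the brain of M00238 was at 0.253 CPM, under the limit. Ucp1 was at 30.3 CPM in the kidney. Each of these tissues has 1 or 2 libraries, so there is no replicate check across mice for kidney or intestine tumour.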

How the results depend on the processing

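For single genes, 799 alternative values kept their direction and side of the threshold, 23 lost a call, 45 gained one and 28 turned direction; the cause was not tested. Leaving out mouse M00248 and the sum of Plin1 and Adipoq were chosen after seeing the data. The number of members called ranged, leaving out 1 library at a time, from 3 to 4 in sarcoma against muscle, 2 to 3 against spleen, 2 to 3 against lung, 1 to 3 in muscle against spleen, 2 to 4 in muscle against lung, 0 to 1 in lung against spleen and 1 to 2 in liver tumour against liver. Values that turned in those fits ranged, in sarcoma against spleen, from -0.139 to 1.57 (Adipoq) and -0.154 to 1.497 (Cidec). In sarcoma against lung they ranged from -1.567 to 0.473 (Plin1), -1.694 to 0.722 (Adipoq), -1.403 to 0.675 (Cfd) and -0.458 to 1.612 (Fabp4). In lung against spleen they ranged from -0.143 to 2.56 (Adipoq) and -0.268 to 1.695 (Fabp4), and for Cfd in liver tumour from -3.122 to 3.591.

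The counts of called members below describe the settings only. The share of all genes called and the number of members tested also change with the setting, so they are not results about the members. Called members became 6 with no filter and 5 with 1 fit over 6 groups (sarcoma against muscle, 3 as reported). In sarcoma against spleen (2) they became 1 with total counts only (Fabp4), 1 with a mean of at least 5 CPM, 1 with the mouse block and 1 without M00248. In muscle against spleen (2) they became 1 at 5 CPM and 1 with 1 fit. In muscle against lung (3) they became 5 with total counts, 7 with no filter and 6 with 1 fit. In lung against spleen (0) they became 2 with total counts, 1 by DESeq2, 2 with no filter, 1 with 1 fit and 2 with the block. In liver tumour (1) they became 2 with total counts, 0 by DESeq2, 2 with no filter, 0 with the block and 2 without M00248.

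With total counts only, Fabp4 (0.143) and Pparg (0.769) turned in sarcoma against muscle. With the replicate block (mouse), Pparg turned against muscle (0.354), Adipoq (-0.58), Cidec (-0.738) and Cfd (-0.276) against spleen, and Plin1 (0.624), Adipoq (0.921) and Cfd (1.851) against lung. Without M00248, Plin1 (0.383), Adipoq (0.637) and Cfd (0.62) turned against lung, and Fabp4 (-0.183) in lung against spleen. Beyond the calls given in the results, the block changed no other call of a member. Over all genes the block gave 4755 calls in place of 8342 (sarcoma against spleen), 4030 in place of 6520 (against lung) and 0 in place of 1407 (liver tumour). The liver tumour count was 2380 with 1 fit, 860 without the tumour of M00248 and 562 without that mouse, and by DESeq2 it split into 1092 higher and 918 lower.

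The order of tissues by all 10 genes was sarcoma 1, muscle 2, lung 3, liver tumour 4, spleen 5 and liver 6. By Adipoq, Plin1 and Cidec it was liver tumour 1, sarcoma 2, lung 3, liver 4, spleen 5 and muscle 6. Without Fabp4 and Pparg it was lung 1, sarcoma 2, liver tumour 3, spleen 4, muscle 5 and liver 6. By means it was lung 1, liver tumour 2, sarcoma 3, muscle 4, spleen 5 and liver 6. By Plin1 and Adipoq it was sarcoma 1, lung 2, spleen 3, muscle 4, liver 5 and liver tumour 6. By the mean log2 level it began with sarcoma 1, lung 2 and liver tumour 3 at each pseudocount, followed by spleen 4, liver 5 and muscle 6 (0.1), spleen 4, muscle 5 and liver 6 (1) or muscle 4, spleen 5 and liver 6 (5). At these depths a count of 0 allows up to 0.297 to 0.62 CPM. Levels under that are not told apart from those of libraries with no count, which covers most values of Lep, Retn and Ucp1.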
